A study of Mus musculus with 18 samples.

Results

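The genes described here are 10 transcription regulators that are named in the literature on the mesenchymal state of glioma: the AP-1 genes Fosl1 and Fosl2, the C/EBP genes Cebpb and Cebpd, Runx1, Stat3, Bhlhe40, and the Hippo pathway genes Wwtr1 (encoding TAZ), Yap1 and Tead1. They were taken by name. All 10 stood in each of the 3 bulk count tables, of 35869 rows in the Ras tumour table, and in the Drop-seq table, and 9 of the 10 stood among the 28692 features of the 10x table; Cebpd was not analysed in that library. The study set 2 mouse gliomas with different drivers against each other and treated mice with a drug against CSF1R, a receptor that macrophages and microglia need to survive. All mice were Boy/J. The tumours called Ras carried HRasV12, which the study's model pairs with a dominant negative p53.

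Ras tumours came from mice gavaged each day with 100 mg/kg PLX3397 from day 7 after implantation until they were moribund (n = 4), or with vehicle on the same schedule (n = 4); the vehicle samples carry the treatment label untreated. PLX3397 inhibits CSF1R and also KIT and FLT3. CD11b+ cells were pulled with magnetic beads from PDGFB-driven tumours after 3 days of PLX3397 at 100 mg/kg begun on day 14 (n = 2) or of vehicle (n = 1). Untreated cultures comprised 2 lines of Ras tumour origin and 3 of PDGF tumour origin. The media differed: that of the Ras lines held EGF and FGF, and that of the PDGF lines held PDGF-BB and PDGF-AA as well, so driver and medium cannot be told apart. Untreated Ras tumour cells, with red cells lysed, gave 1 library by 10x and 1 by Drop-seq.

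Human glioblastomas are often sorted into proneural and mesenchymal forms, the second rich in genes of wound repair, matrix and inflammation and in infiltrating myeloid cells. C/EBPβ and STAT3 were named in human glioma as regulators of that programme, with FOSL2, RUNX1 and BHLHE40 beside them, and TAZ was named there as a co-activator that works through TEAD factors. STAT3 carries signals from IL-6 family receptors, AP-1 factors carry signals from the Ras and MAP kinase pathway, and YAP and TAZ are held out of the nucleus by the kinases of the Hippo pathway. The same C/EBP, RUNX and STAT factors are also regular parts of macrophage and neutrophil biology, so a bulk tumour value adds tumour cells and immune cells together.

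Libraries held 31.3 to 35.9 M counts for Ras tumours, 26.8 to 30.9 M for CD11b+ cells and 32.0 to 35.9 M for lines (M, 1e6). Levels are counts per 1e6 counts (CPM) after TMM scaling. The 10x library gave 59.3 M UMIs (unique molecular identifiers, 1 per captured transcript), of which 3320 barcodes with a median of 8351 UMIs were kept, and the Drop-seq library 9.67 M UMIs, with 4901 barcodes kept at a median of 1396. The libraries shared 0 barcodes among those kept. The CD11b+ libraries held the myeloid list they are named for, with summed levels of 10 pan-myeloid genes of 9356 to 11711 CPM, against 5.53 to 124.6 CPM over the 5 lines, where 7 of the 10 were at 0 in at least 1 line. The highest of the line values was that of PDGF line 3.

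Where reads were not split by strand, overlapping genes cannot be separated, and the strand setting of the counting is not given in the sources used here. Fosl1 (chr19:5447547-5455946, plus strand; GRCm38 throughout) shares 1163 of its 2033 exon bases with Ccdc85b on the other strand, so its bulk values are uncertain. Smaller stretches on the other strand are shared by Cebpd with Spidr (562 bases), Cebpb with Tmem189 (312), Bhlhe40 with 0610040F04Rik (118), Yap1 with Gm20416 (116), Runx1 with Gm26626 (106) and Stat3 with Stat5a (72). Wwtr1 and Tead1 shared 0 exon bases with the genes that overlap them.

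RefSeq promoters of build GRCm38.p6, from 250 bases before to 50 after a start, were listed for 6 of the 10 genes (Fosl2, Cebpb, Runx1, Stat3, Wwtr1 and Yap1) and not for Fosl1, Cebpd, Bhlhe40 and Tead1. Those of Wwtr1, Yap1 and Stat3 are shown because Wwtr1 and Yap1 were called higher together in the CD11b+ cells described further on, while Stat3, whose promoter holds the same letters, was not called. Capitals mark the letters GGAATG, the core that TEAD factors read, or its complement CATTCC, and in Yap1 also CACGTG, an E-box of the kind that BHLHE40 reads.
Wwtr1, chr3:57575861-57576160, minus strand: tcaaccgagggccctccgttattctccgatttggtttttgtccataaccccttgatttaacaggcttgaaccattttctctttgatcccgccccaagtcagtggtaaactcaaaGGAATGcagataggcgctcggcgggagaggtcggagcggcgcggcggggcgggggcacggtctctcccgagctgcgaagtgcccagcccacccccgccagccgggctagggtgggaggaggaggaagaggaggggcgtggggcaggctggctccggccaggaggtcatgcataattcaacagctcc
Yap1, chr9:8004547-8004846, minus strand: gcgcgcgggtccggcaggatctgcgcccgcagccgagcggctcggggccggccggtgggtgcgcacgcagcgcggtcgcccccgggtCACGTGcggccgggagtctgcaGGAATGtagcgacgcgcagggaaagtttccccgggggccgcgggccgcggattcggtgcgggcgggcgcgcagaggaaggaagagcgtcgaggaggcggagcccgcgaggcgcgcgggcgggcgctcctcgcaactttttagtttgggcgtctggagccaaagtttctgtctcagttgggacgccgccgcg
Stat3, chr11:100939491-100939790, minus strand: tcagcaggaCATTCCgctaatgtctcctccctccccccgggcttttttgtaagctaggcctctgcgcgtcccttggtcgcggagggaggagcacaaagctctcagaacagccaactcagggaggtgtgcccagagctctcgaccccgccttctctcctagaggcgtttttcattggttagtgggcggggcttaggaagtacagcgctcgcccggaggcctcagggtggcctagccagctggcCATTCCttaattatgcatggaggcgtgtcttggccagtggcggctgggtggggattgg

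The TEAD letters began at -136 from the start in Wwtr1, at -141 in Yap1 and at -241 and -8 in Stat3, and they were also present at -55 in 1 of the listed Runx1 promoters (chr16:92697280-92697579, minus strand). Over 32851 RefSeq promoters of the same length and with both strands read, 14.7% hold GGAATG and 7.15% hold CACGTG, so such a match is common. The letters searched for AP-1 (TGANTCA, 7.81% of promoters), C/EBP (TTGCNNAA, 10.8%) and STAT (TTCNNNGAA, 8.3%) were in none of the windows of these 6 genes. The RUNX letters TGTGGT (16.8% of promoters) were found in the other Runx1 promoter (chr16:92826025-92826324), which also holds CACGTG. A match describes the sequence and is no evidence of binding.

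In the untreated Ras tumour the regulators fell into contrasting patterns by cell type. Over the 10x clusters as a whole, Cebpb, Runx1, Fosl2 and Bhlhe40 were denser in the myeloid ones, Wwtr1, Tead1, Yap1 and Fosl1 were denser in the others, and Stat3 was spread over nearly all clusters. The 10x cells formed 15 clusters, of which 3 held at least 5 of 10 pan-myeloid markers: a neutrophil-like cluster (80 cells), a cluster led by C1qa, C1qc and C1qb (432 cells) and a monocyte/macrophage-like cluster (114 cells). These 626 cells had a median of 5541.5 UMIs and held 13.04% of all UMIs; the other 2694 cells had a median of 9766 UMIs. With 1 library there is no test, and the intervals given are exact Poisson or Clopper-Pearson 95% intervals that cover counting error only.

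Cebpb (chr2:167688915-167690418, plus strand) encodes C/EBPβ, a factor of myeloid differentiation and inflammatory gene expression. It stood at 1360 CPM (1333 to 1387) in the myeloid clusters and 60.5 CPM (58.3 to 62.8) in the other clusters, a ratio of 22.5, so 77.1% of its 12578 UMIs came from the myeloid clusters (76.4% to 77.8%). Within the myeloid cells it was 3686 CPM in the neutrophil-like, 2948 CPM in the monocyte/macrophage-like and 874.4 CPM in the C1q cluster. The share of cells with a Cebpb UMI, after thinning to 2000 UMIs, was 73.9% of 502 myeloid cells and 8.88% of 2004 other cells (124 and 690 shallower cells left out); unthinned it was 81.3% and 31.8%. The erythroid-like cluster, which should lack it and had a median of 2326.5 UMIs, gave 2.20% thinned and 8.82% unthinned. Outside the myeloid clusters Cebpb was highest in the cluster led by Nppb, Nefl and S100a6, at 213.7 CPM, and in the cluster led by Igfbp7, Mmp9, Cldn5 and Col1a1, at 184.2 CPM.

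Runx1 (chr16:92601466-92826149, minus strand), a factor of blood stem cells and their progeny, was 132.8 CPM in the myeloid and 19.8 CPM in the other clusters, a ratio of 6.71. Fosl2 (chr5:32135801-32157842, plus strand), an AP-1 subunit, was 82.9 CPM in the myeloid and 16.9 CPM in the other clusters, with its top level of 414.9 CPM in the neutrophil-like cells. Bhlhe40 (chr6:108660629-108666925, plus strand), a repressor tied to the clock and to low oxygen, was 139.5 CPM in the myeloid and 43.3 CPM in the other clusters. For these 3 genes, unlike Cebpb, the myeloid clusters supplied about as many or fewer UMIs than the far more numerous other cells. The share was 50.2% for Runx1, 42.4% for Fosl2 and 32.6% for Bhlhe40. The largest myeloid cluster, the C1q one, held Fosl2 at 39.1 CPM and Bhlhe40 at 86.5 CPM. These lay near or under the levels of some non-myeloid clusters. Fosl2 was 38.3 CPM in the Nppb and Nefl cluster. The Igfbp7 and Col1a1 cluster held 62.4 CPM of Fosl2 and 92.7 CPM of Bhlhe40. Highest outside the myeloid clusters was a small T/NK-like cluster (17 cells). It held 198.9 CPM of Fosl2 (113.7 to 323.1) on 16 UMIs and 186.5 CPM of Bhlhe40 (104.4 to 307.6) on 15 UMIs. The neutrophil-like cluster held 318.3 CPM of Bhlhe40. The monocyte/macrophage-like cluster held 203.3 CPM of Fosl2 and 327.2 CPM of Bhlhe40. Stat3 (chr11:100885098-100939540, minus strand) was 117.4 CPM in the myeloid and 130.7 CPM in the other clusters, with 11.9% of its UMIs in the myeloid cells against their 13.04% of all UMIs.

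Wwtr1 (chr3:57455649-57575910, minus strand) was 12.8 CPM in the myeloid and 76.6 CPM in the other clusters. It was densest in the cluster led by Lcn2, Igfbp2 and Scg2, at 232.7 CPM (220.6 to 245.2), in the Igfbp7 and Col1a1 cluster, at 213.3 CPM (191.6 to 236.8), and in the Nppb and Nefl cluster, at 185.2 CPM (171.9 to 199.3). The intervals of neighbours in this order overlap, so the order of neighbours is not settled at this depth. In the large Rev3l and Pcdh15 cluster (766 cells), the astrocyte-like cluster and the dividing cluster it was 30.03, 33.02 and 22.3 CPM, none above the 35.5 CPM on 20 UMIs of the erythroid-like cluster, a level that counts as background here. After thinning, 4.18% of myeloid cells held a Wwtr1 UMI, against 12.4% of other cells and 3.30% of erythroid-like cells; unthinned these were 11.5%, 35.7% and 11.2%.

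Tead1 (chr7:112679318-112906807, plus strand), the DNA-binding partner of YAP and TAZ, was 10.7 CPM in the myeloid and 60.8 CPM in the other clusters. Its densest cluster was that led by Malat1 and Meg3, at 210.8 CPM on 100 UMIs, followed by the Lcn2 and Igfbp2 cluster at 116.8 CPM. The pooled myeloid level of Tead1 counts as background, beside 14.2 CPM (6.13 to 28.0) on 8 UMIs in the erythroid-like cluster. The neutrophil-like cluster alone was higher, at 44.3 CPM (22.1 to 79.3) on 11 UMIs, though these intervals overlap. Yap1 (chr9:7931999-8004596, minus strand) was sparse: 541 UMIs in all, 1.54 CPM in the myeloid and 11.1 CPM in the other clusters, and 21.1 to 29.7 CPM in the Igfbp7 and Col1a1, Malat1 and Meg3, Nppb and Nefl, and Lcn2 and Igfbp2 clusters. The erythroid-like cluster gave 7.10 CPM of Yap1 on 4 UMIs, so the myeloid level and that of the dividing, Rev3l and astrocyte-like clusters (5.13, 7.38 and 6.12 CPM) lie near or under background. Fosl1, an AP-1 subunit induced by Ras signalling, was the most concentrated of the non-myeloid regulators: 179 of its 420 UMIs lay in the Nppb and Nefl cluster (239 cells), at 46.3 CPM (39.8 to 53.6), and 86 in the Lcn2 and Igfbp2 cluster, at 14.3 CPM. Over the whole classes Fosl1 was 3.22 CPM in the myeloid and 8.34 CPM in the other clusters, beside 5.33 CPM on 3 UMIs in the erythroid-like cluster.

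The Drop-seq library, shallower and from an assay with its own clusters, gave the same order for Cebpb, Runx1, Wwtr1 and Tead1. Its 178 myeloid cells (median 1070.5 UMIs; 1414 in the others) held Cebpb at 268.7 CPM, against 9.87 CPM in the other clusters, and Runx1 at 82.3 CPM, against 7.08 CPM. Bhlhe40 was 82.3 CPM (49.6 to 128.6) in the myeloid cells and 37.1 CPM (33.3 to 41.3) in the others. The intervals of Fosl2 overlapped, at 34.7 CPM (14.97 to 68.3) and 18.03 CPM (15.4 to 21.0). By cluster, the myeloid one was not the top for either gene. The cluster led by Igfbp7, Mmp9 and Col1a1 held 99.1 CPM of Bhlhe40 and 86.7 CPM of Fosl2. The cluster that holds Cryab, Areg and Timp1 held 120.4 CPM of Bhlhe40 and 60.2 CPM of Fosl2. Runx1 was 74.3 CPM on 12 UMIs in the Igfbp7 and Mmp9 cluster. The intervals of all these values overlap those of the myeloid cells. Wwtr1, Yap1 and Fosl1 had 0 UMIs in the myeloid cells, which allows up to 13.0013 CPM at 3 counts, and stood at 23.0, 12.4 and 7.30 CPM in the other clusters. The limit for Yap1 and Fosl1 is not below the level outside, so for them no difference was detectable at this depth. Tead1 had 1 UMI in the myeloid cells, 4.33 CPM (0.11 to 24.1), against 45.1 CPM (40.9 to 49.6) in the others. Stat3 was 134.3 CPM (91.3 to 190.7) in the myeloid cells and 133.0 CPM (125.7 to 140.6) in the others. Cebpd (chr16:15887286-15891031, plus strand), an acute-phase C/EBP factor, could be read only here among the single-cell data. It was 34.7 CPM in the myeloid cells (14.97 to 68.3) and 53.1 CPM in the others, and its top levels were 235.2 CPM in the cluster led by Igfbp7, Mmp9 and Col1a1 and 120.4 CPM in the cluster that holds Cryab, Areg and Timp1. That last cluster (156 cells) was also the top one for Fosl1, at 50.6 CPM on 21 of its 68 UMIs.

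**Figure D1:**
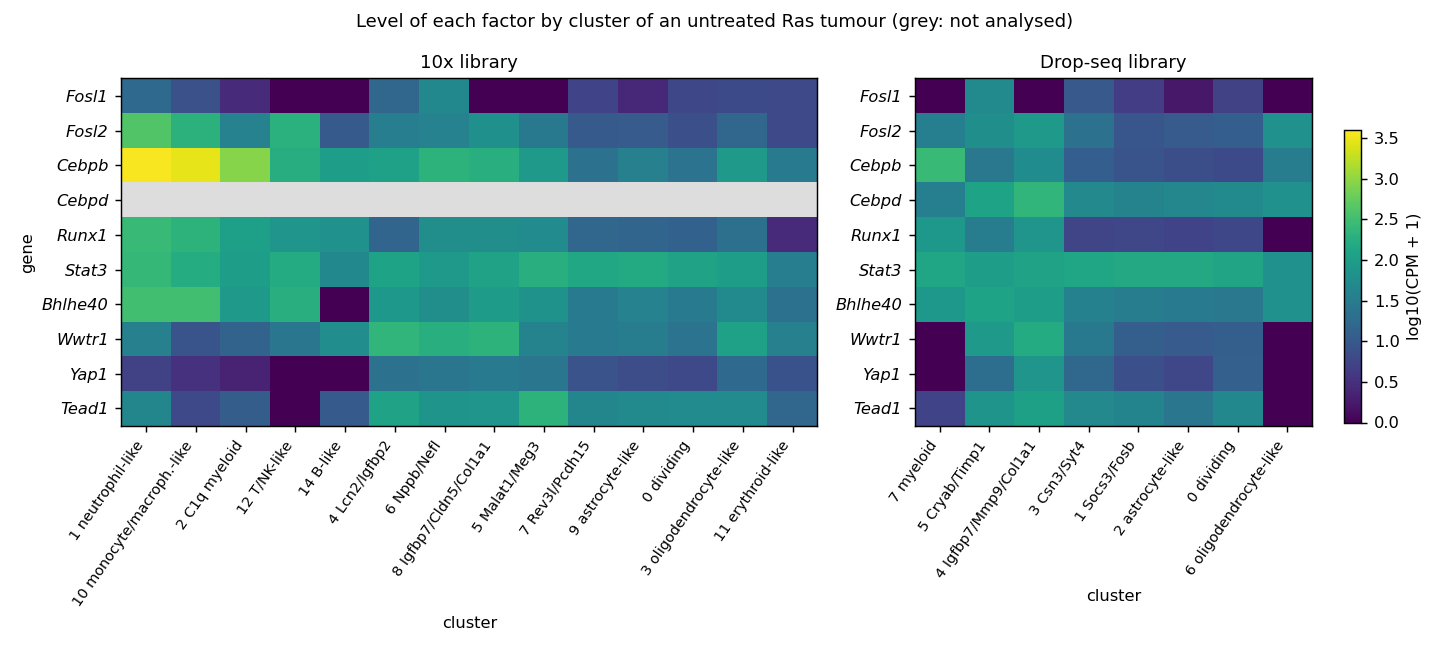
Level of each of the 10 genes (rows) in the clusters (columns) of the 10x and the Drop-seq library, as log10(CPM + 1) from summed UMIs; grey marks Cebpd in the 10x library, which was not analysed, and a 10x cluster of 38 cells led by Alb and Ttr is not drawn. Cebpb reaches 3686 CPM in the neutrophil-like cluster, while Wwtr1 peaks at 232.7 CPM in the Lcn2 and Igfbp2 cluster.

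Genes with the most similar pattern over the 15 clusters, by Pearson r of log2(CPM + 10) among 7834 genes that reached 50 CPM in a cluster, were Furin (0.95), Tpd52 (0.95) and Mcl1 (0.94) for Cebpb; Runx2 (0.96), Ppp1r3b (0.94) and B4galt1 (0.93) for Fosl2; and Ehbp1l1 (0.96), Ncoa3 (0.95) and Zfp710 (0.94) for Runx1. For Stat3 they were Zfx (0.97), Ncoa6 (0.96) and Fcho2 (0.96), and for Bhlhe40 Hilpda (0.91), Snx18 (0.89) and Rbpj (0.89). For Tead1 they were Rab34 (0.93), Amotl1 (0.92), a Hippo pathway gene, and Lzts2 (0.92), and for Wwtr1 Sparc (0.93), Kitl (0.89) and Tm4sf1 (0.87). Fosl1 lay under 50 CPM in every cluster, and Yap1 reached it only in the 38-cell Alb and Ttr cluster, at 67.8 CPM on 2 UMIs, so neither is ranked here. Among the regulators themselves, Fosl2 ran with Runx1 (r = 0.86) and Bhlhe40 (0.83), and Cebpb with Runx1 (0.82). All points come from 1 library, with clusters of unequal depth, and the 38-cell cluster, where each regulator rests on at most 5 UMIs, is 1 of the 15, so these values are a description. Of the YAP and TAZ target genes listed, 21 had at least 20 UMIs, and 11 of them had their top level in the Igfbp7 and Col1a1 cluster. That cluster (55 cells, median 24260 UMIs) was raised for 8 of 8 endothelial markers and was also led by collagen genes. The share of all genes with their top level there was not worked out, so the count does not show an excess of targets.

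In the Ras tumours none of the 10 regulators was called under PLX3397, although the summed pan-myeloid levels of the 2 groups of tumours did not overlap. By edgeR's quasi-likelihood test 0 of the 10 were called at an adjusted p under 0.05 over 18366 genes, where 0% of all genes were called, and DESeq2 and limma voom with quality weights called 0 of the 10 as well. At an unadjusted p under 0.05 there was 1, Cebpb, and it was lower, against 3.53% of all genes in either direction and 3.11% lower. The 10 log2 fold changes ran from -0.59 to 0.36 with a median of -0.04, beside 0.0015 for all genes, 4 of them positive and 6 negative. Without vehicle tumour 4 the median was 0.17 and without PLX3397 tumour 1 it was 0.15, with 9 and 7 of the 10 positive, so the balance of signs rests on single libraries. For no regulator were the groups free of overlap, a state seen in 0.446% of genes with PLX3397 higher and 2.09% with PLX3397 lower.

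Cebpb had 71.0, 68.4, 55.1 and 66.7 CPM in the PLX3397 tumours, against 109.1, 85.5, 68.7 and 129.3 CPM in the vehicle tumours. The groups touched at 1 point, the highest PLX3397 library above the lowest vehicle library. The means were 65.3 ± 7.05 and 98.2 ± 26.6 CPM (SD, n = 4 each), the log2 fold change was -0.59 (SE 0.20) and the edgeR adjusted p was 0.955. The summed level of the 10 pan-myeloid genes was 308.4 to 1258 CPM in the PLX3397 tumours and 1355 to 2392 CPM in the vehicle tumours, with none of the 10 genes at 0 in any library and 8 of them lower at an unadjusted p under 0.05. Its part in the Cebpb difference was not tested. In bulk tissue, fewer cells of a type and less RNA per cell cannot be told apart.

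Among the other genes dense in myeloid clusters, Runx1 had 70.2, 155.2, 144.7 and 146.4 CPM in the PLX3397 tumours, against 149.9, 101.0, 127.9 and 239.5 CPM in the vehicle tumours, a log2 fold change of -0.26 (SE 0.33). Fosl2 had 100.9, 126.4, 196.3 and 186.8 CPM in the PLX3397 tumours, against 127.8, 100.5, 151.5 and 279.6 CPM in the vehicle tumours (-0.11, SE 0.35). Bhlhe40 had 173.6, 164.3, 228.2 and 227.9 CPM in the PLX3397 tumours, against 170.0, 147.2, 194.2 and 320.4 CPM in the vehicle tumours (-0.07, SE 0.25). The groups overlapped widely for all 3, and vehicle tumour 4 was the highest library for each. That library also had the highest neutrophil marker sum, 554.2 CPM over 8 markers against 25.96 to 228.5 CPM in the 7 others. The neutrophil list includes Mmp9, a leading gene of the Igfbp7 and Col1a1 cluster in the 10x library. The astrocyte marker sum of vehicle tumour 4 was the lowest, 480.0 CPM against 1342 to 4045 CPM. The part of these sums in the values was not tested.

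Stat3 had 195.2, 210.0, 167.0 and 172.6 CPM in the PLX3397 tumours, against 173.3, 174.1, 161.4 and 141.7 CPM in the vehicle tumours. The log2 fold change was 0.20 with the smallest SE of the 10 genes (0.12), and the groups overlapped. Cebpd had 64.9, 94.6, 38.6 and 58.4 CPM in the PLX3397 tumours, against 50.5, 80.5, 40.6 and 28.9 CPM in the vehicle tumours (0.36, SE 0.36). Fosl1 had 101.5, 125.3, 231.3 and 215.8 CPM in the PLX3397 tumours, against 177.0, 144.5, 160.0 and 213.1 CPM in the vehicle tumours (-0.04, SE 0.28). PLX3397 tumours 1 and 2, with at least 20.7 CPM of the Y-linked gene Ddx3y, were the low ones for Fosl1, and 3 and 4, with at most 0.0566 CPM, the high ones. Within the mice with Ddx3y (2 against 2) the difference in log2(CPM + 1) was -0.50, within those without it (2 against 2) it was 0.27, and the test of the difference between these strata gave an unadjusted p of 0.0399 and an edgeR adjusted p of 0.9999. The overlapping gene Ccdc85b was also lower in PLX3397 tumours 1 and 2, with 172.8, 172.4, 256.9 and 245.4 CPM in tumours 1 to 4, so which of the pair the Fosl1 reads came from cannot be told apart.

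The Hippo regulators, denser outside the myeloid clusters, overlapped between the groups. Wwtr1 had 168.5, 366.2, 340.3 and 299.1 CPM in the PLX3397 tumours, against 247.1, 266.1, 243.8 and 368.2 CPM in the vehicle tumours (0.06, SE 0.25). Tead1 had 159.5, 368.0, 419.5 and 364.3 CPM in the PLX3397 tumours, against 287.6, 307.4, 314.8 and 440.3 CPM in the vehicle tumours (-0.04, SE 0.29). Yap1 had 85.9, 122.8, 140.1 and 138.7 CPM in the PLX3397 tumours, against 106.6, 96.4, 109.9 and 141.6 CPM in the vehicle tumours (0.10, SE 0.19). PLX3397 tumour 1 was the lowest of the 8 libraries for all 3 genes, and it had the highest astrocyte, neuron and oligodendrocyte marker sums. These sums were 4045, 3272 and 1785 CPM, against at most 2965, 3025 and 972.8 CPM in any other tumour. The 95% intervals of the log2 fold change were -0.52 to 0.64 for Wwtr1, -0.71 to 0.63 for Tead1 and -0.33 to 0.53 for Yap1, so changes of up to about these sizes in either direction are not excluded.

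**Figure D2:**
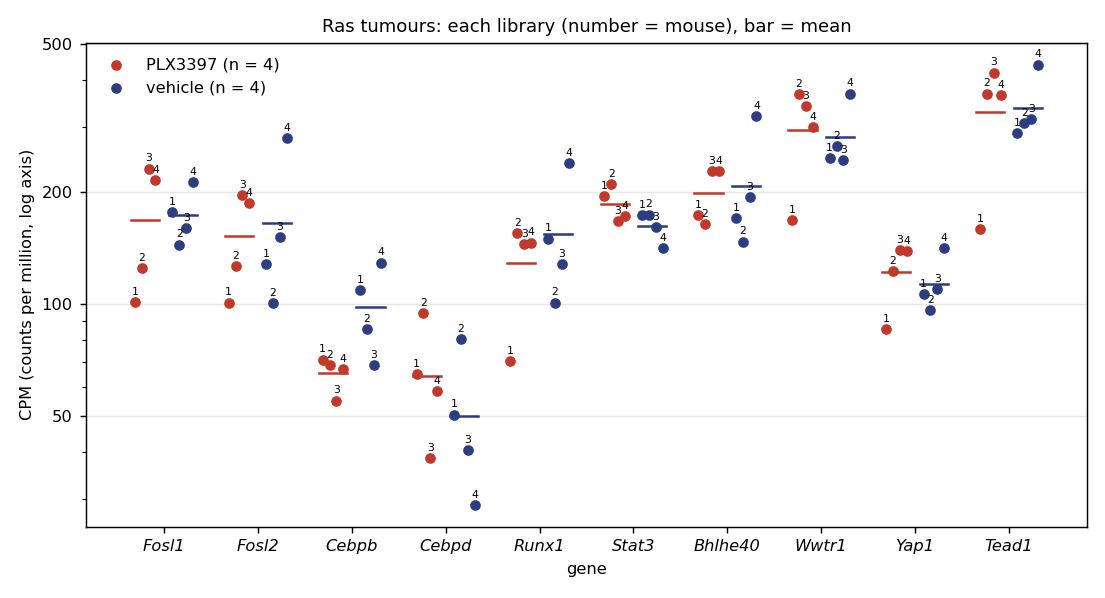
CPM on a log axis of each of the 10 genes in Ras tumours from mice given PLX3397 (left of each pair, n = 4) and vehicle (right, n = 4); points are libraries numbered by mouse and bars are group means. The groups overlap for every gene, with Cebpb the least, at 55.1 to 71.0 CPM under PLX3397 and 68.7 to 129.3 CPM under vehicle.

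Read per kilobase of exon, the only scale here on which levels of different genes can be set side by side, Fosl1 was first in the Ras tumours, at 82.9 ± 31.8 CPM per kb in PLX3397 tumours and 85.4 ± 14.5 in vehicle tumours (n = 4 each, SD), with the doubt over its reads given above. Wwtr1 had 61.4 ± 18.4 CPM per kb in PLX3397 tumours and 58.9 ± 12.3 in vehicle tumours, and Cebpb 43.4 ± 4.69 and 65.3 ± 17.7, so Wwtr1 was second under PLX3397 and Cebpb second under vehicle, there by less than either SD. Bhlhe40 came next in both groups, with 42.2 ± 7.29 in PLX3397 tumours and 44.2 ± 16.4 in vehicle tumours. Tead1 was 24.2 ± 8.48 under PLX3397 and 24.9 ± 5.12 under vehicle, and Stat3 19.5 ± 2.10 and 17.1 ± 1.59. Cebpd, Fosl2, Yap1 and Runx1 had the 4 lowest means in either group, from 10.7 to 17.1 CPM per kb. The step from Bhlhe40 down to Tead1 was larger than either SD in both groups.

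No other gene of these pathways was called in the Ras tumours. In the AP-1 family (9 genes tested), the C/EBP family (3), the RUNX family (4), the STAT3 pathway (16), the clock partners of Bhlhe40 (8), the Hippo and TEAD genes (15), the YAP and TAZ targets (22), other mesenchymal factors (12), mesenchymal genes (18) and proneural genes (11), edgeR called 0. List medians of the log2 fold change lay between -0.42 and 0.23. Fos, an AP-1 gene that answers acute signals, was the 1 gene of these lists higher at an unadjusted p under 0.05, at 23.5 CPM under PLX3397 and 14.5 CPM under vehicle (log2 fold change 0.70, SE 0.19, edgeR adjusted p = 0.646), where 0.414% of all genes were higher at that level. The list genes lower at that level were 4 (Runx3, Stk4, Snai2 and Tgfbi), where 3.11% of all genes were lower.

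In CD11b+ cells of PDGFB tumours, 3 days of PLX3397 went with higher Wwtr1, Yap1 and Tead1. Each was called by edgeR, at 3.67-fold to 4.59-fold the vehicle level, while the regulators denser in the myeloid clusters as a whole were not called. The 3 called were all higher, among 10, where 4.57% of the 15052 genes tested were called higher, 1.78% lower and 6.35% in either direction. At an unadjusted p under 0.05 there were 6, all higher, against 18.2% of genes higher and 29.3% in either direction. The median log2 fold change of the 10 was 0.63, beside 0.0066 for all genes. The fit has 2 PLX3397 libraries, 1 vehicle library and 1 residual degree of freedom, and it assumes that the lone vehicle library varies like the others. Limma voom with quality weights called 0 of the 10 and 0 of all genes, while DESeq2 called 4, Fosl1 being added, and 1980 of 18267 genes.

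Wwtr1 had 76.1 and 109.1 CPM in the PLX3397 libraries, against 25.2 CPM in the vehicle library, a log2 fold change of 1.88 (SE 0.28, edgeR adjusted p = 0.0431). Yap1 had 26.8 and 36.5 CPM in the PLX3397 libraries, against 7.88 CPM in the vehicle library (2.01, SE 0.28, adjusted p = 0.0382). Tead1 had 81.3 and 123.2 CPM in the PLX3397 libraries, against 22.3 CPM in the vehicle library (2.20, SE 0.32, adjusted p = 0.0413). PLX3397 library 2 was the higher of the pair for all 3, and both lay above the vehicle library, a state shared by 41.6% of all genes in this design (42.0% for the opposite state).

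The CD11b+ libraries were not pure, and genes of non-myeloid cells moved with the Hippo regulators. The summed level of 8 astrocyte markers was 729.4 and 685.2 CPM in the PLX3397 libraries, against 129.0 CPM in the vehicle library, with 6 of the 8 called higher. For 7 fibroblast markers the sums were 600.1 and 1066 CPM in the PLX3397 libraries, against 158.9 CPM (2 called), for 8 neuron markers 132.9 and 147.2 CPM, against 30.6 CPM (5 called), and for 7 pericyte markers 83.4 and 164.3 CPM, against 34.2 CPM (1 called). Of these 4 lists, 1 marker, the neuron gene Rbfox3, was at 0 in a library. The sums of 8 oligodendrocyte precursor markers were 175.6 and 253.3 CPM in the PLX3397 libraries, against 71.8 CPM (3 called higher), and those of 9 neural progenitor and glioma markers 382.0 and 446.0 CPM, against 154.6 CPM (3 called higher). Oligodendrocyte markers summed to 501.8 and 364.7 CPM in the PLX3397 libraries, against 209.7 CPM (3 of 8 called higher), and endothelial markers to 349.5 and 593.2 CPM, against 250.8 CPM (1 of 8). Markers of dividing cells went the other way, at 228.1 and 340.9 CPM in the PLX3397 libraries, against 1077 CPM in the vehicle library, with 4 of 8 called lower. Erythroid markers summed to 3.03 and 15.7 CPM in the PLX3397 libraries, against 30.2 CPM, and T and NK cell markers to 16.98 and 20.1 CPM, against 26.3 CPM, with 0 called in either list. The pan-myeloid sum was 11711 and 9356 CPM in the PLX3397 libraries and 11770 CPM in the vehicle library, with 0 of 10 called. In the single-cell data above, Wwtr1 was 12.8 CPM and Tead1 10.7 CPM in myeloid clusters, under the levels of the other clusters. Those cells came from an untreated Ras tumour, not from PDGFB tumours. Both pooled values also lay under the erythroid-like cluster, at 35.5 CPM of Wwtr1 and 14.2 CPM of Tead1, and so count as background. The neutrophil-like cluster alone held 44.3 CPM of Tead1 on 11 UMIs. The part of non-myeloid cells in the difference of the 3 genes was not tested.

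**Figure D3:**
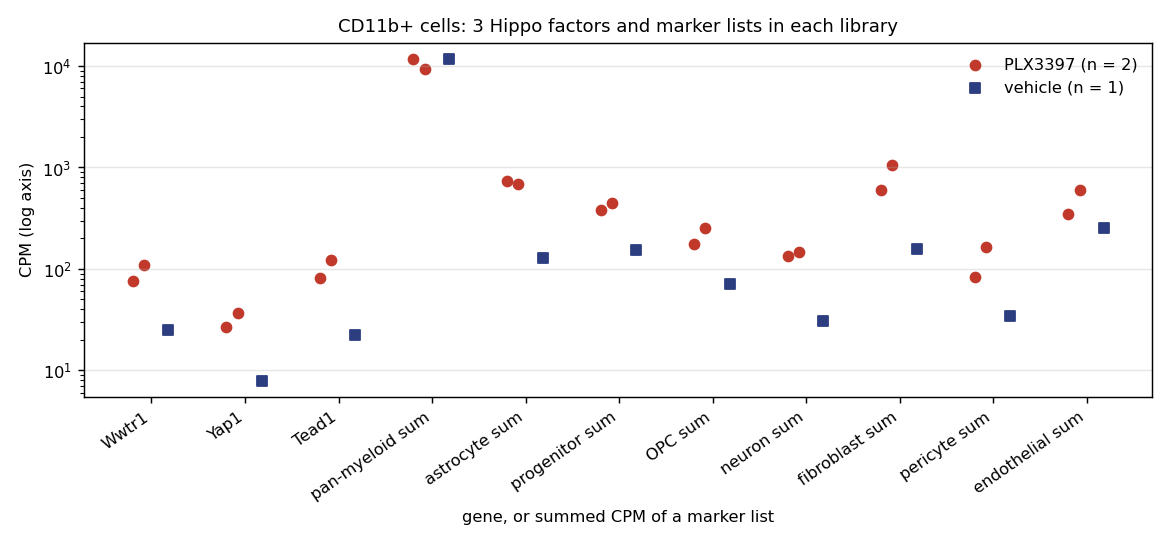
CPM on a log axis of Wwtr1, Yap1 and Tead1, and summed CPM of marker lists, in CD11b+ cells of PDGFB tumours given PLX3397 (circles, n = 2) or vehicle (squares, n = 1). The 3 genes and the astrocyte sum (729.4 and 685.2 against 129.0 CPM) stand higher in both PLX3397 libraries, while the pan-myeloid sum (11711 and 9356 against 11770 CPM) does not.

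YAP and TAZ are known to act through target genes. Of 22 listed targets 8 were called higher and 0 lower, where 4.57% of all genes were called higher, and the list's median log2 fold change was 1.70. Ccn1, a matricellular protein gene also known as Cyr61, averaged 170.1 CPM in the PLX3397 libraries, against 35.2 CPM in the vehicle library (2.27, SE 0.20, edgeR adjusted p = 0.0305), and Igfbp3, a carrier of insulin-like growth factors, 591.7 CPM against 133.2 CPM (2.15, SE 0.26, adjusted p = 0.0345). Arhgef17 (2.64, SE 0.25) and F3 (1.88, SE 0.27) were among the others called. In the untreated Ras tumour cells above, Igfbp3 and Ccn1 had their top levels, 1592.7 and 104.2 CPM, in the Igfbp7 and Col1a1 cluster. F3 had its top level, 189.7 CPM, in the Lcn2 and Igfbp2 cluster. Of the 21 targets read there, 11 were highest in the Igfbp7 and Col1a1 cluster. The neutrophil-like cluster was the top one for 3 targets and the C1q cluster for 1. The part of non-myeloid cells in the differences of the targets was not tested. Among 15 Hippo and TEAD genes, Amotl1, Wwc1, Tead3 and Tead2 were called higher and 0 lower. The list includes both activators and inhibitors of the pathway: AMOTL1 and WWC1 (KIBRA) are known to restrain YAP, and the TEAD proteins are its partners on DNA.

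The regulators denser in the 10x myeloid clusters as a whole were high in the CD11b+ libraries and were not called. Cebpb had 700.8 and 794.2 CPM in the PLX3397 libraries, against 511.5 CPM in the vehicle library (0.55, SE 0.21, 95% interval 0.0093 to 1.09, unadjusted p = 0.0474, edgeR adjusted p = 0.165), both PLX3397 libraries above the vehicle library. Per kilobase it led the 10 genes by a wide margin, at 497.0 ± 43.9 CPM per kb in the PLX3397 libraries (SD, n = 2), against 340.1 in the vehicle library; Bhlhe40, the next, was 72.1 ± 15.05 and 78.0 CPM per kb in the same order. Runx1 had 205.0 and 231.7 CPM in the PLX3397 libraries, against 200.1 CPM in the vehicle library. Fosl2 had 359.8 and 592.4 CPM in the PLX3397 libraries, against 573.0 CPM in the vehicle library, and Bhlhe40 had 289.1 and 389.2 CPM in the PLX3397 libraries, against 367.2 CPM in the vehicle library. For both, the vehicle value lay between the PLX3397 values. Neutrophil markers summed to 509.2 to 859.2 CPM in the PLX3397 libraries, against 487.2 CPM in the vehicle library (0 of 7 tested called). Macrophage and monocyte markers summed to 5671 to 5722 CPM, against 6370 CPM (0 of 10 called). In the microglia (10) and dendritic (8) lists 1 gene each was called lower and 0 higher, where 1.78% of all genes were called lower. The part of myeloid make-up in these values was not tested.

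Stat3 had 306.7 and 324.8 CPM in the PLX3397 libraries, against 344.1 CPM in the vehicle library (-0.12, SE 0.17). Cebpd had 75.3 and 87.2 CPM in the PLX3397 libraries, against 49.5 CPM in the vehicle library (0.72, SE 0.17, edgeR adjusted p = 0.0745). Fosl1 was low, with 5.76 and 8.43 CPM in the PLX3397 libraries, against 2.00 CPM in the vehicle library (1.82, SE 0.42, adjusted p = 0.0703), and its overlapping neighbour Ccdc85b had 29.2 and 31.9 CPM in the PLX3397 libraries, against 17.0 CPM. Both Cebpd and Fosl1 fell short of the call, and both passed it when no filter on low counts was used.

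Of 16 STAT3 pathway genes, Osmr, the receptor for oncostatin M, was called higher, at 19.7 CPM in the PLX3397 libraries and 3.77 CPM in the vehicle library (2.38, SE 0.28), and Lifr, the receptor for leukaemia inhibitory factor, was called lower, at 43.4 and 128.0 CPM (-1.56, SE 0.15). Cbfb, the partner that RUNX proteins need on DNA, was called lower, at 102.0 CPM in the PLX3397 libraries and 189.2 CPM in the vehicle library (-0.89, SE 0.16), the 1 call among 3 RUNX family genes tested. In the AP-1 (9 tested) and C/EBP (4 tested) families 0 were called. Nr1d1, a clock repressor, was the 1 call of 8 clock partners (1.82, SE 0.22). Over all genes 6.35% were called in either direction, so 1 or 2 calls in lists of 3 to 16 genes say little of those lists. Other mesenchymal factors called were Prrx1 and Twist1, both higher, of 12. Of 9 proneural genes tested, Pdgfra, Ncam1, Olig1 and Olig2 were called higher, where 4.57% of all genes were, with a list median of 2.48.

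Between cultured lines, all 10 regulators had positive log2 fold changes in Ras over PDGF lines, the largest for Wwtr1, Yap1 and Fosl1, but none was called. By edgeR 0 of the 10 passed an adjusted p under 0.05, as did 0% of the 17475 genes tested, with a smallest adjusted p of 0.12. At an unadjusted p under 0.05 there were 5, all higher, where 8.80% of all genes were higher and 7.46% lower by that measure. The groups did not overlap for 5 (Fosl1, Fosl2, Wwtr1, Yap1 and Tead1), a state that 17.9% of all genes reached with the Ras lines higher and 20.6% with them lower. The median log2 fold change was 2.04, beside 0.014 for all genes. DESeq2 called 4 of the 10 (Wwtr1, Yap1, Tead1 and Fosl1) and 2047 genes in all. Without Ras line 2, where the spread comes from the PDGF lines alone, edgeR called 5 of the 10 and 2111 genes.

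Wwtr1 had 712.3 and 129.7 CPM in the Ras lines, against 21.7, 26.1 and 16.7 CPM in the PDGF lines, a log2 fold change of 4.29 (SE 0.76, edgeR adjusted p = 0.209). Yap1 had 178.3 and 96.4 CPM in the Ras lines, against 3.58, 19.0 and 6.72 CPM in the PDGF lines (3.81, SE 0.80, adjusted p = 0.215). Tead1 had 714.9 and 201.8 CPM in the Ras lines, against 83.2, 43.8 and 68.1 CPM in the PDGF lines (2.82, SE 0.61, adjusted p = 0.215). Both Ras lines lay above all PDGF lines for each of the 3, and Ras line 1 lay well above Ras line 2. Without Ras line 1 the log2 fold changes were 2.59 for Wwtr1, 3.31 for Yap1 and 1.63 for Tead1. Wwtr1 had the highest mean of the 10 genes per kilobase in the Ras lines, at 88.1 ± 86.2 CPM per kb (SD, n = 2), and the fifth in the PDGF lines, at 4.50 ± 0.986 (n = 3).

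The values of Fosl1, Fosl2 and Cebpb rested on Ras line 1. Fosl1 had 76.4 and 6.52 CPM in the Ras lines, against 3.52, 4.79 and 3.94 CPM in the PDGF lines (3.34, SE 1.00), and Ccdc85b, which overlaps it, had 108.7 and 52.5 CPM in the Ras lines, against 50.8, 51.6 and 64.5 CPM. Fosl2 had 87.7 and 16.57 CPM in the Ras lines, against 16.2, 7.09 and 16.53 CPM in the PDGF lines, so that Ras line 2 cleared the PDGF lines only narrowly. Cebpb had 54.4 and 9.47 CPM in the Ras lines, against 5.51, 11.3 and 5.48 CPM in the PDGF lines (2.10, SE 0.81), with Ras line 2 inside the PDGF range. Without Ras line 1 the log2 fold change of Fosl1 was 0.68, that of Fosl2 0.32 and that of Cebpb 0.35, and the median of the 10 was 0.51.

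Runx1 had 40.1 and 6.83 CPM in the Ras lines, against 2.63, 13.5 and 4.06 CPM in the PDGF lines (1.81, SE 1.03), and without Ras line 1 its log2 fold change was 0.03. Cebpd had 21.8 and 16.5 CPM in the Ras lines, against 6.43, 4.15 and 16.8 CPM in the PDGF lines (1.07, SE 0.66; 0.86 without Ras line 1). Bhlhe40 had 195.7 and 87.4 CPM in the Ras lines, against 121.5, 60.5 and 121.9 CPM in the PDGF lines (0.48, SE 0.48). The groups overlapped for all 3. Stat3 was the most even, with 174.7 and 243.2 CPM in the Ras lines, against 206.5, 167.9 and 210.1 CPM in the PDGF lines (0.10, SE 0.23), and its 95% interval of -0.48 to 0.68 excludes a change as large as that estimated for Wwtr1, Yap1 or Tead1.

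**Figure D4:**
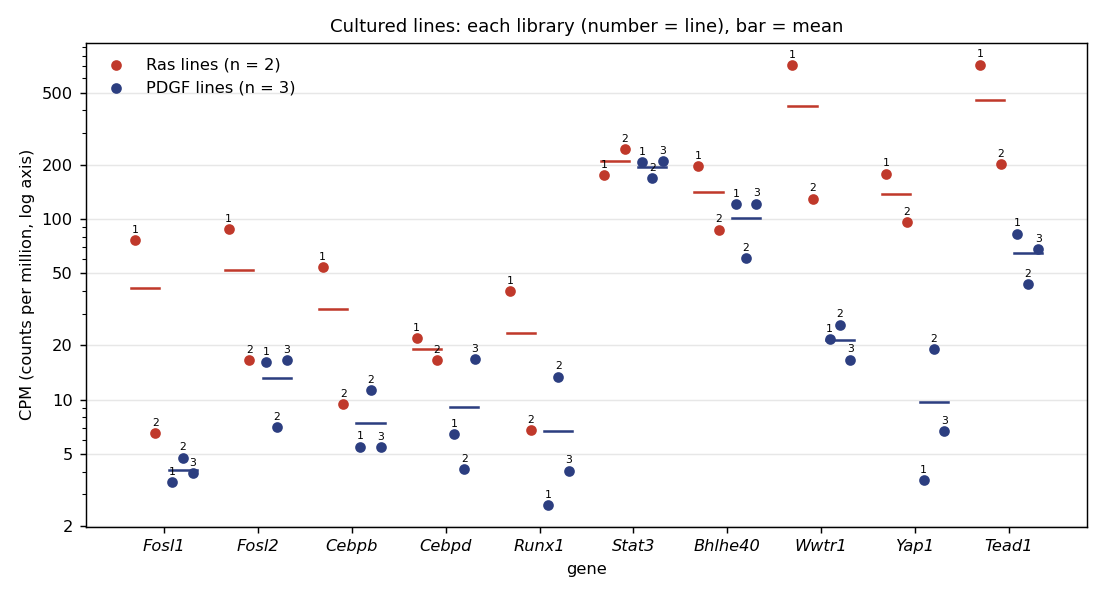
CPM on a log axis of the 10 genes in Ras lines (left of each pair, n = 2) and PDGF lines (right, n = 3); points are lines, numbered, and bars are group means. Both Ras lines exceed all PDGF lines for Wwtr1, Yap1 and Tead1, and the Stat3 values (167.9 to 243.2 CPM) intermix.

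In the lines edgeR called 0 genes of any list. The list counts here are at an unadjusted p under 0.05, where 8.80% of all genes were higher and 7.46% lower. Of the mesenchymal genes tested, 12 of 18 were higher and 0 lower, with a list median of 4.24. Cd44, a hyaluronan receptor, averaged 254.9 CPM in the Ras lines and 17.0 CPM in the PDGF lines (3.91, SE 0.62, adjusted p = 0.205), and Itga5, a fibronectin receptor subunit, 139.0 and 2.62 CPM (5.73, SE 1.09, adjusted p = 0.209). Of 11 proneural genes 0 were higher and 4 lower at that unadjusted level, with a median of -1.11: Sox10, a factor of the oligodendrocyte lineage, averaged 0.759 CPM in the Ras lines and 860.9 CPM in the PDGF lines (adjusted p = 0.120). The Hippo and TEAD list had 6 of 15 higher and 0 lower, led by Amotl1, Amot, Tead2 and Tead3, with a median of 0.81. Of 21 YAP and TAZ targets tested 6 were higher, among them Ajuba, Myof and Igfbp3, and 2 lower, among them Amotl2 (-1.86, SE 0.41). Of 14 STAT3 pathway genes tested 5 were higher, among them the receptor gene Il6ra and the ligand genes Lif and Il11, while Stat3 itself was at 0.10. Without Ras line 1 the list medians were 1.61 for the mesenchymal genes, 0.23 for the Hippo and TEAD genes and -0.08 for the YAP and TAZ targets.

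**Figure D5:**
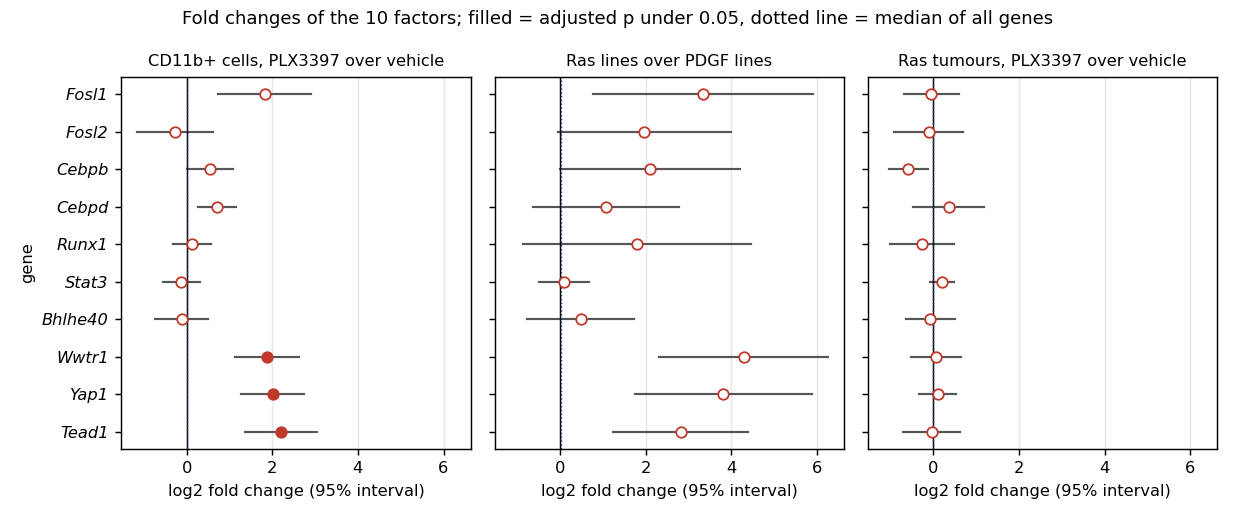
Log2 fold change with its 95% interval for each of the 10 genes, on 1 common axis, in CD11b+ cells (PLX3397 over vehicle), lines (Ras over PDGF) and Ras tumours (PLX3397 over vehicle); filled points passed an adjusted p of 0.05 by edgeR, and the dotted line is the median of all genes. Wwtr1, Yap1 and Tead1 are filled in the CD11b+ cells and lie at 2.82 to 4.29 in the lines, while all 10 lie between -0.59 and 0.36 in the Ras tumours.

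The level of Fosl1 differed most between bulk and single cells. The Ras tumours averaged 168.5 CPM under PLX3397 and 173.6 CPM under vehicle, while the untreated Ras tumour cells held 7.68 CPM in the 10x library and 7.12 CPM in the Drop-seq library. For Stat3 the same values were 186.2 and 162.6 CPM in bulk and 129.0 and 133.0 CPM in the single-cell libraries, and for Ccdc85b, which was at 172.4 to 256.9 CPM over the bulk tumours, 44.5 CPM by 10x and 76.6 CPM by Drop-seq. Wide gaps were not limited to Fosl1. Yap1 was 121.9 and 113.6 CPM in bulk, against 9.89 CPM by 10x and 12.1 CPM by Drop-seq. Runx1 was 129.1 and 154.6 CPM in bulk, against 34.5 and 8.90 CPM. Cebpb went both ways, at 65.3 and 98.2 CPM in bulk, 229.9 CPM by 10x and 16.1 CPM by Drop-seq. The tumours were not the same ones and the single-cell assays read transcript ends, so these are values side by side with no test.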

How the data were processed

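The 16 bulk and 2 single-cell libraries were used as the counts that the authors deposited: whole-number counts per gene in the 3 bulk tables, and UMI counts per gene and barcode in the 10x and Drop-seq tables. The submitters' processing notes name the tools featureCounts 1.6.2, STAR 2.6.1e, Cell Ranger, Trim Galore 0.4.2 with cutadapt 1.9.1, and FastQC 0.11.7, and the build GRCm38; which tool made which table, and the strand setting, are not given in the sources used here. Columns that matched no sample label (5) were not used, and 27 rows with a date in place of a gene name, at most 0.360% of a library, were left out.

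Each bulk comparison was fitted alone with edgeR 4.0.16 (TMM scaling, filterByExpr, quasi-likelihood test, Benjamini-Hochberg adjustment over all genes tested, called at 0.05), in R 4.3.3. All 10 genes passed the filter in each. DESeq2 1.42.0, limma 3.58.1 voom, other scaling, no filter, left-out libraries, a replicate block and a Ddx3y term were the alternatives. The fits were tested on simulated data. Exon lengths and overlaps came from GENCODE for GRCm38. The labels do not say in every case that replicates were separate animals or cultures, so p-values measure the spread between these samples.

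A 10x barcode was kept with at least 500 UMIs and 300 genes detected, a Drop-seq barcode with at least 300 UMIs and 200 genes detected, both with at most 20% mitochondrial UMIs, and clustered with scanpy 1.11.5 (2000 variable genes, 30 components, 15 neighbours, Leiden resolution 0.5). Scrublet called 0 doublets in either library, and none was removed. Intervals and limits cover counting error only.

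The 10 genes and all gene lists were chosen with earlier results of these data known. All 10 are named in every comparison, with up to 4 genes of each other list by smallest adjusted p, and for likeness the 3 genes with the highest r.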

Additional observations from a re-analysis of the deposited data

Results flagged for a closer look

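Runx1 in PLX3397 Ras tumour 1, at 70.2 CPM, lay far below the other PLX3397 tumours, at 155.2, 144.7 and 146.4 CPM, with a gap to its nearest neighbour of 0.876 of the whole range, above the critical value of 0.829 for 4 samples. It was the 1 such value among 20 groups of 4 tumours examined (10 genes, PLX3397 and vehicle), and chance marks about 1 in 20. The same library was the lowest of the 8 tumours for Wwtr1, Yap1 and Tead1 and had the highest astrocyte, neuron and oligodendrocyte marker sums. The part of these in the Runx1 value was not tested.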

How the results depend on the processing

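In the Ras tumours 0 of the 10 genes were called under every alternative run, while the genes called over the whole table were 178 with DESeq2, 377 with limma voom and 1 with no filter on low counts. With limma voom the log2 fold changes of Fosl1 (0.31), Fosl2 (0.34), Runx1 (0.11), Bhlhe40 (0.24) and Tead1 (0.21) turned positive. Leaving out 1 tumour at a time moved Fosl1 from -0.24 to 0.14, Fosl2 from -0.29 to 0.29, Runx1 from -0.42 to 0.061, Bhlhe40 from -0.20 to 0.24, Wwtr1 from -0.063 to 0.25 and Tead1 from -0.18 to 0.19, while Cebpb stayed between -0.73 and -0.41. In the CD11b+ cells 5 of the 10 were called with no filter and 0 with limma voom, and over all genes 1980 with DESeq2, 1907 with no filter and 0 with limma voom; leaving out a PLX3397 library leaves no degrees of freedom for a test. In the lines DESeq2 called 4 of the 10 and 2047 genes, no filter called 1 gene, and leaving out 1 line gave 0 to 5 of the 10 and 0 to 2111 genes, the highest without Ras line 2; Stat3 ran from -0.18 to 0.32 and Bhlhe40 from -0.21 to 0.93. The causes of these shifts were not tested. Over all member fold changes 259 were labelled the same, 21 reversed, 12 gained a call, 3 lost one and 5 moved. For fits with a test, the same means that direction and call were kept. The CD11b+ leave-outs have no test, and there it means a shift smaller than the SE. In these Fosl2, at -0.27 in the main fit, reached 0.048, and Bhlhe40, at -0.11, reached 0.084, so both changed sign under that label.

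With the replicate block 0 genes were called in the Ras tumours and in the lines. Same-numbered tumours had correlations of deviations of 0.01, 0.14, -0.45 and 0.55, and 1 of 4 correlated best with its own number; for the lines they were -0.16 and -0.12, so the numbers do not pair the samples. No paired analysis was possible because the CD11b+ groups share only 1 replicate number. Thinning moved 34 of 38 shares of cells with a UMI, which depth therefore limits. Without the 5% of barcodes with the highest doublet score, 10x myeloid levels were 1450 CPM for Cebpb, 143 CPM for Runx1 and 148 CPM for Bhlhe40. With 2 lines, or 1 vehicle library, a group's spread is poorly known.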
